A study of Homo sapiens with 6 samples.

Results

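Kinesins are motor proteins that use ATP to walk along microtubules. Most human kinesin genes carry the symbol KIF followed by a number, or KIFC followed by a number for the motors with a C-terminal motor domain. All protein-coding genes with such a symbol were taken, without the adaptor KIFAP3 and the binding protein KIFBP. This gave 42 genes of the 60658 Ensembl identifiers in the expression tables. They were described as 14 mitotic kinesins, 17 transport kinesins and 11 other kinesins. The classes were set by known function, with earlier results of these data known.

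The lines used were C4-2B MDVR and CWR22Rv1, both from prostate cancer. Their RNA was sequenced after 48 h with 10 µM APO (apoptozole), with 10 µM VER (VER155008) or with the vehicle DMSO alone. Both compounds block the chaperone HSP70, and the study asked how gene expression differs with the chaperone blocked in cells resistant to enzalutamide, an androgen receptor antagonist. C4-2B MDVR is a derivative of C4-2B that was selected for resistance and was kept in 20 µM enzalutamide, and CWR22Rv1 was kept without it. Each of the 6 conditions had 1 library, so a difference between 2 libraries comes without replicate error and without a p-value. Both lines are established lines in culture. The line and the presence of enzalutamide cannot be told apart. The titles name C4-2B MDVR, while other label fields of the same samples name LNCaP-C4-2B and parental cells. The titles were used.

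During cell division, mitotic kinesins push the spindle poles apart, move chromosomes to the spindle equator, shorten microtubule ends and build the midzone at which the daughter cells separate. Many of their genes are transcribed late in the cell cycle, so their messages are abundant in dividing cells and scarce in resting cells. Transport kinesins carry vesicles, mitochondria, endosomes and protein complexes along microtubules in dividing and resting cells alike, and some of them are best known from the axons of neurons.

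All values are FPKM, the fragments per gene scaled by transcript length and by library, so genes can be set side by side. All 8 prostate luminal markers, androgen receptor and kallikrein genes among them, lay above 1 FPKM in all 6 libraries. The 7 neuroendocrine and neuronal markers summed to between 15.6 and 22.2 FPKM in C4-2B MDVR and to between 71.7 and 140 in CWR22Rv1, and CHGA was listed at 0 in all 3 libraries of C4-2B MDVR. The 6 fibroblast markers summed to at most 11.3 and 32.1 FPKM in the 2 lines and the 6 blood cell markers to at most 4.53. The tables hold no read totals. With the depth of the DMSO control of C4-2B MDVR set to 1, that of the other libraries was between 1.14 and 1.63, so low values were least precise in that control. Genes of the mitochondrial chromosome held 14.8% to 16.4% of all FPKM in C4-2B MDVR, and 25.7%, 10.4% and 25.7% in CWR22Rv1 with DMSO, APO and VER.

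Genes that peak late in the cell cycle often carry 2 short elements at their start, a CCAAT box bound by NF-Y and a cell cycle genes homology region (CHR, TTTGAA or TTCGAA) bound by the DREAM and MYBL2-FOXM1 complexes. These letters were searched on both strands in windows from 250 bases before to 50 bases after each RefSeq gene start (GRCh38.p14). E2F was searched in the forms TTTGGCG or else TTTCGCG as well as TTTGCCG or else TTTCCCG. A window was available for 34 of the 42 kinesins, with none used for KIF5A, KIF13B, KIF19, KIF21B, KIF26B, KIF27, KIFC2 and KIFC3. A CCAAT and a CHR match stood in the same window in 10 of 14 mitotic kinesins (KIF4A, KIF4B, KIF11, KIF14, KIF18A, KIF18B, KIF20B, KIF22, KIF23 and KIFC1), in 1 of 12 transport kinesins (KIF5B) and in 1 of 8 other kinesins (KIF24). Of all 35116 windows 6.38% held both, and of the 22199 windows of protein-coding genes 5.48%. CCAAT alone was common, at 34.6% of all windows, CHR was in 16.4% and E2F letters in 8.67%. E2F letters stood in 2 mitotic (KIF11 and KIF15), 3 transport and 1 other kinesin. The stretches shown here run from base -110 to base 10, where base 1 is the gene start, with CCAAT and CHR matches in capitals. Read on the other strand, CCAAT appears as ATTGG and the first form of the CHR as TTCAAA. The first group shows mitotic kinesins with both elements near the start.
KIF4A, chrX:70289994-70290113, plus strand: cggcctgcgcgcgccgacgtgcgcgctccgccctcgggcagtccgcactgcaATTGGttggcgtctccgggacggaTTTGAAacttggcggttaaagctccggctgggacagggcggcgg
KIF11, chr10:92593020-92593139, plus strand: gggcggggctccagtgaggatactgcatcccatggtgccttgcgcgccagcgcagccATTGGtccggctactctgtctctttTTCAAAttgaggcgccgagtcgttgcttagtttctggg
KIF18A, chr11:28108147-28108266, minus strand: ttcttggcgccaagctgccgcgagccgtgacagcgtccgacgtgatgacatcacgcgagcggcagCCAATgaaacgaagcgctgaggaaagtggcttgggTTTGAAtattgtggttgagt
KIF18B, chr17:44947764-44947883, minus strand: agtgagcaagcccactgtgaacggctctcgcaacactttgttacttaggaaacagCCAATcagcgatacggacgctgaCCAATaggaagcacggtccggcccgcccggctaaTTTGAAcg
KIF22, chr16:29790641-29790760, plus strand: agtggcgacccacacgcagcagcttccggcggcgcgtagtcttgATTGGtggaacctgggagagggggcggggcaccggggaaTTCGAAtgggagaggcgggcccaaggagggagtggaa
KIF23, chr15:69414239-69414358, plus strand: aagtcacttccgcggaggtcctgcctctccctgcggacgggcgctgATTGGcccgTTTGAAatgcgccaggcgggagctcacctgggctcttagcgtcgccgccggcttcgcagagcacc
KIFC1, chr6:33391713-33391832, plus strand: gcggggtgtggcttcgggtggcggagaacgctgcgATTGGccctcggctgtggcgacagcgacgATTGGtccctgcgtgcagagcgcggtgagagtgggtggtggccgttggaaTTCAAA
Between the CCAAT match and the CHR match that follows it lay 19 bases in KIF4A, 20 in KIF11, 30 in KIF18A, 29 in KIF18B, 34 in KIF22, 4 in KIF23 and 45 in KIFC1. KIF20A is shown because it holds 2 CCAAT matches and no CHR match, and KIF24 because it is the only kinesin outside the mitotic class with this arrangement, 43 bases apart. KIF1C and KIF5B are the transport kinesins with the highest levels in C4-2B MDVR with DMSO, and neither has a CHR match in this stretch (the one in KIF5B lies farther upstream, from base -140).
KIF20A, chr5:138179002-138179121, plus strand: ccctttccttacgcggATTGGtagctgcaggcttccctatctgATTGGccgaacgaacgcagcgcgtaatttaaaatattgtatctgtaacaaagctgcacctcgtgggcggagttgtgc
KIF24, chr9:34329259-34329378, minus strand: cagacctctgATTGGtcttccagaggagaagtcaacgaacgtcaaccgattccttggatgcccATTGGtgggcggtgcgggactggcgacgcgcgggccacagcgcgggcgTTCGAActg
KIF1C, chr17:4997840-4997959, plus strand: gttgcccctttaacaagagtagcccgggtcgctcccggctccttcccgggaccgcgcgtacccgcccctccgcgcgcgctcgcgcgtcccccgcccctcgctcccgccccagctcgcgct
KIF5B, chr10:32056416-32056535, minus strand: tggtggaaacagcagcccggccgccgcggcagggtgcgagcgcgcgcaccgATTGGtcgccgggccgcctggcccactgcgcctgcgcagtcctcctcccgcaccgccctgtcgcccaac
A match of letters is a description of the sequence, and no binding was measured.

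**Figure D1:**
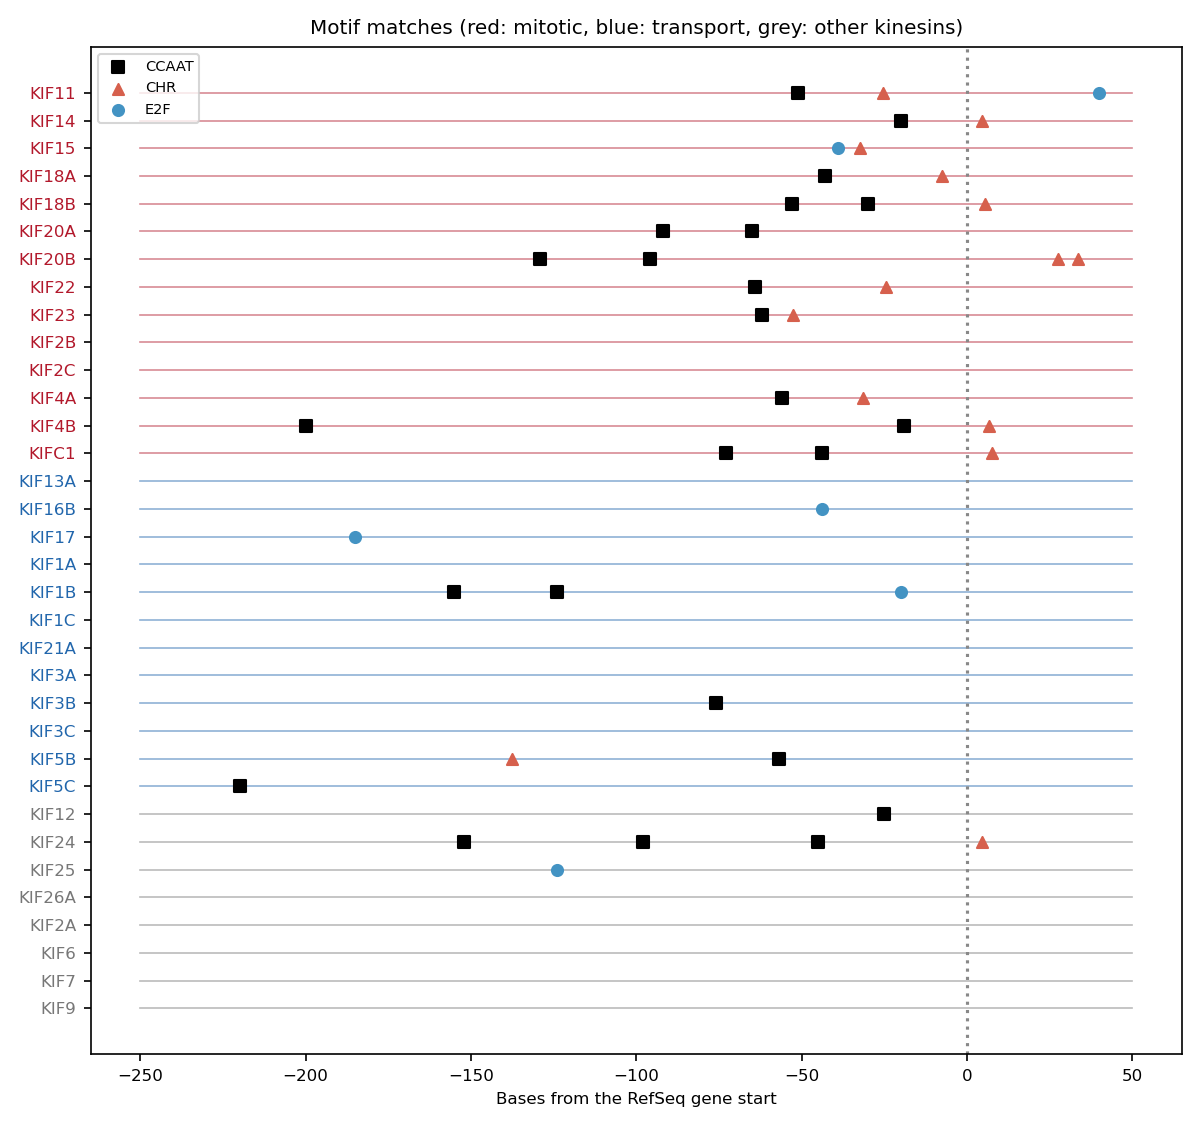
Positions of CCAAT, CHR and E2F letter matches (symbols) in the 300-base windows of 34 kinesins, 1 row per gene and its first window; the x axis gives bases from the RefSeq gene start. CCAAT and CHR matches pair up in the rows of 10 mitotic kinesins and of KIF5B and KIF24.

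The FPKM of all 42 genes summed to 645 in C4-2B MDVR and 568 in CWR22Rv1, and mitotic kinesins held 48.4% and 52.1% of it. Transport kinesins held 46.4% and 36.5%. KIF22 was the most abundant kinesin in both DMSO libraries, at 124 and 78.4 FPKM, and alone held 19.2% and 13.8% of the sum. It shares 561 of its 4312 exonic bases with AC009133.4 on the other strand. All 12 mitotic kinesins with signal exceeded 1 FPKM in both, with KIF20B lowest in CWR22Rv1 at 1.93 FPKM. KIF2B and KIF4B were the exceptions. KIF2B was listed at 0 in all 6 libraries, and KIF4B, a gene of 1 exon, never exceeded 0.00704 FPKM. The KIF4B transcript was 95.2% identical to that of KIF4A over 4359 aligned bases, so any fragments of KIF4B may have been counted for KIF4A.

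With an inhibitor, the sum over the mitotic kinesins was lower in both lines and the sum over the transport kinesins was within 1.2-fold of its DMSO value. Mitotic kinesins of C4-2B MDVR summed to 312 FPKM with DMSO, 134 with APO and 49.3 with VER. Their share of kinesin FPKM was 28.6% with APO and 12.0% with VER. In CWR22Rv1 they summed to 296, 176 and 140 FPKM, and their share was 38.9% with APO and 35.5% with VER. Transport kinesins summed to 299, 299 and 325 FPKM in C4-2B MDVR and to 207, 231 and 191 in CWR22Rv1. Without KIF22, the mitotic sum in C4-2B MDVR was 188, 90.8 and 17.8 FPKM, so the difference did not rest on that gene. RNA was measured in bulk, where fewer dividing cells and less kinesin RNA per cell cannot be told apart.

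**Figure D2:**
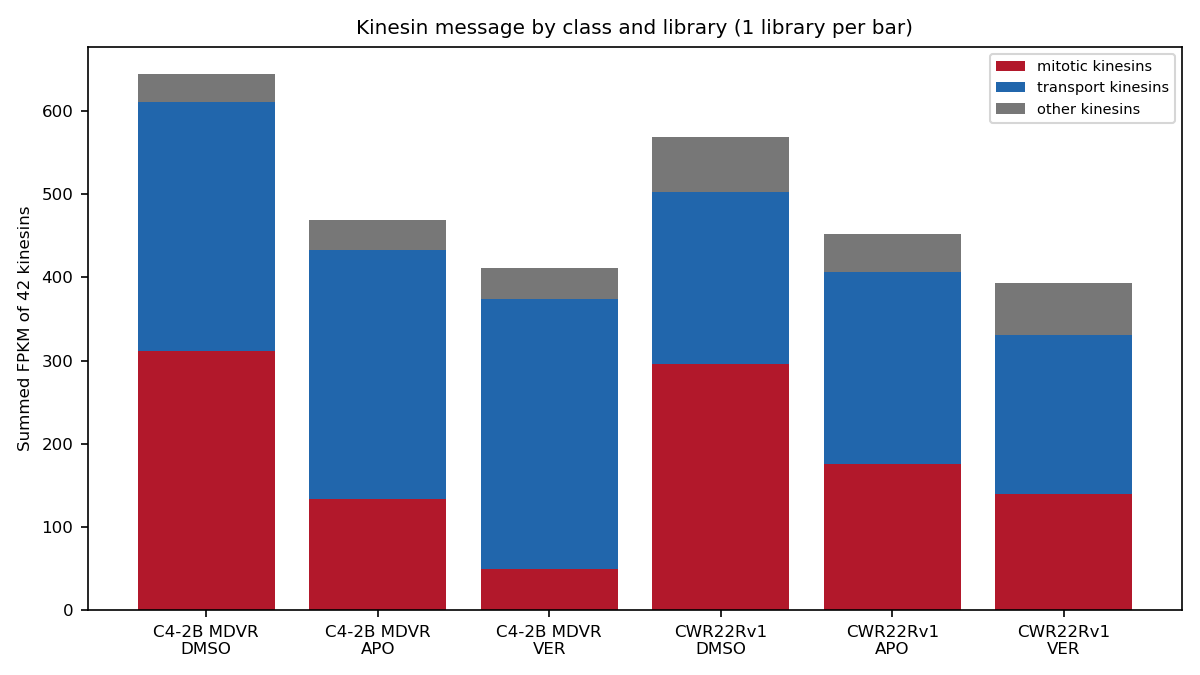
Summed FPKM of the 42 kinesins (y axis) in each of the 6 libraries, stacked by class, with 1 library per bar and no error. The mitotic part goes from 312 to 49.3 FPKM between DMSO and VER in C4-2B MDVR, and the transport part from 299 to 325.

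The bipolar spindle is set up by KIF11 (Eg5), which slides antiparallel microtubules apart, by KIF15, which can act alongside it, and by KIFC1 (HSET), a minus-end motor that focuses the poles. Values are given in the order DMSO, APO, VER. KIF11 was at 17.1, 6.83 and 1.57 FPKM in C4-2B MDVR and at 26.8, 14.0 and 11.8 FPKM in CWR22Rv1. KIFC1 was at 34.4, 10.5 and 2.09 FPKM in C4-2B MDVR and at 48.6, 21.8 and 19.6 in CWR22Rv1. Both genes were highest with DMSO and lowest with VER in each line, and the C4-2B MDVR VER library held the lowest values, 9.17% and 6.10% of the DMSO level. KIF15 was at 4.32, 1.85 and 0.463 FPKM in C4-2B MDVR and at 7.57, 6.33 and 3.47 in CWR22Rv1. Its APO value in CWR22Rv1 was 83.6% of DMSO, against 42.7% in C4-2B MDVR.

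The chromokinesins KIF22 (Kid, chr16:29790719-29805385) and KIF4A (chrX:70290090-70420832) bind chromosome arms, and KIF4A also works in the midzone. KIF22 was at 124, 43.3 and 31.5 FPKM in C4-2B MDVR and at 78.4, 48.7 and 47.8 in CWR22Rv1. It kept 25.4% of its DMSO level with VER in C4-2B MDVR, more than 10 of the other 11 mitotic kinesins, and was the most abundant mitotic kinesin in every library. KIF4A was at 17.8, 10.6 and 1.68 FPKM in C4-2B MDVR and at 16.2, 9.33 and 6.73 in CWR22Rv1. The KIF4A levels of the 2 lines were close with DMSO and with APO and apart with VER.

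KIF2C (MCAK), KIF18A and KIF18B act at microtubule ends, where KIF2C takes tubulin off and KIF18A dampens the movements of aligned chromosomes. KIF2C differed between the 2 inhibitors. It was at 36.2, 30.9 and 4.11 FPKM in C4-2B MDVR, and at 33.7, 31.2 and 15.5 in CWR22Rv1. Its APO value was 85.2% and 92.7% of DMSO in the 2 lines, within 1.2-fold in both, and its VER value 11.3% and 46.1%. KIF18A was similar in CWR22Rv1, at 5.86 FPKM with DMSO, 5.78 with APO and 2.55 with VER, and was at 4.41, 2.76 and 0.858 in C4-2B MDVR. KIF18B was at 17.4, 5.27 and 0.748 FPKM in C4-2B MDVR and at 25.4, 6.80 and 11.2 in CWR22Rv1. In CWR22Rv1 it was lower with APO than with VER, the order opposite to that in C4-2B MDVR. Its VER value in C4-2B MDVR, 4.30% of DMSO, was the lowest percentage of any kinesin above 0.1 FPKM in its DMSO library.

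KIF23 (MKLP1), KIF20A (MKLP2), KIF20B and KIF14 serve the midzone and cytokinesis, KIF23 as the motor of the centralspindlin complex and KIF20A as the carrier of the chromosomal passenger complex. KIF20A was at 30.3, 8.63 and 1.52 FPKM in C4-2B MDVR and at 22.3, 12.6 and 6.67 in CWR22Rv1. With VER it kept 5.01% and 29.9% of its DMSO level, the lowest percentage of the mitotic kinesins in CWR22Rv1. KIF23 was at 10.1, 4.95 and 1.19 FPKM in C4-2B MDVR and at 21.5, 15.3 and 10.2 in CWR22Rv1. KIF14 was at 6.81, 3.55 and 0.514 FPKM in C4-2B MDVR and at 7.54, 3.47 and 2.79 in CWR22Rv1. KIF20B stood apart from these. It was at 9.14, 4.95 and 3.08 FPKM in C4-2B MDVR and at 1.93, 0.702 and 1.39 in CWR22Rv1, so it kept the most with VER in both lines, 33.7% and 72.1%, and in CWR22Rv1 it was lowest with APO.

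Fold changes were taken as differences of log2(FPKM + 0.1) between an inhibitor library and the DMSO control of its line, for genes above 0.1 FPKM in at least 1 of the line's 3 libraries. Of the mitotic kinesins 12 of 14 passed this filter in each line. The 2 inhibitors of a line share its DMSO library. With APO in C4-2B MDVR, 7 of the 12 were more than 2-fold lower, against 13.3% of all 20122 genes compared, and 11 were more than 1.2-fold lower, against 35.4%. Their median was -1.10, and in the 4 comparisons the median of all genes lay between -0.01 and 0.0. With VER in that line, 12 of 12 were more than 2-fold lower, against 13.3% of all genes, with a median of -3.22 and a range from -4.37 (KIF18B) to -1.54 (KIF20B). With APO in CWR22Rv1, 4 of 12 (KIF14, KIF18B, KIF20B and KIFC1) were more than 2-fold lower, against 16.8% of 21608 genes, and 9 more than 1.2-fold lower, against 39.2%. The median was -0.80. With VER in CWR22Rv1, 10 of 12 were more than 2-fold lower, against 8.92% of all genes, all but KIF20B and KIF22, and the median was -1.17. No mitotic kinesin was more than 1.2-fold higher in any of these 4 comparisons, where 32.1% to 37.7% of all genes were.

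**Figure D3:**
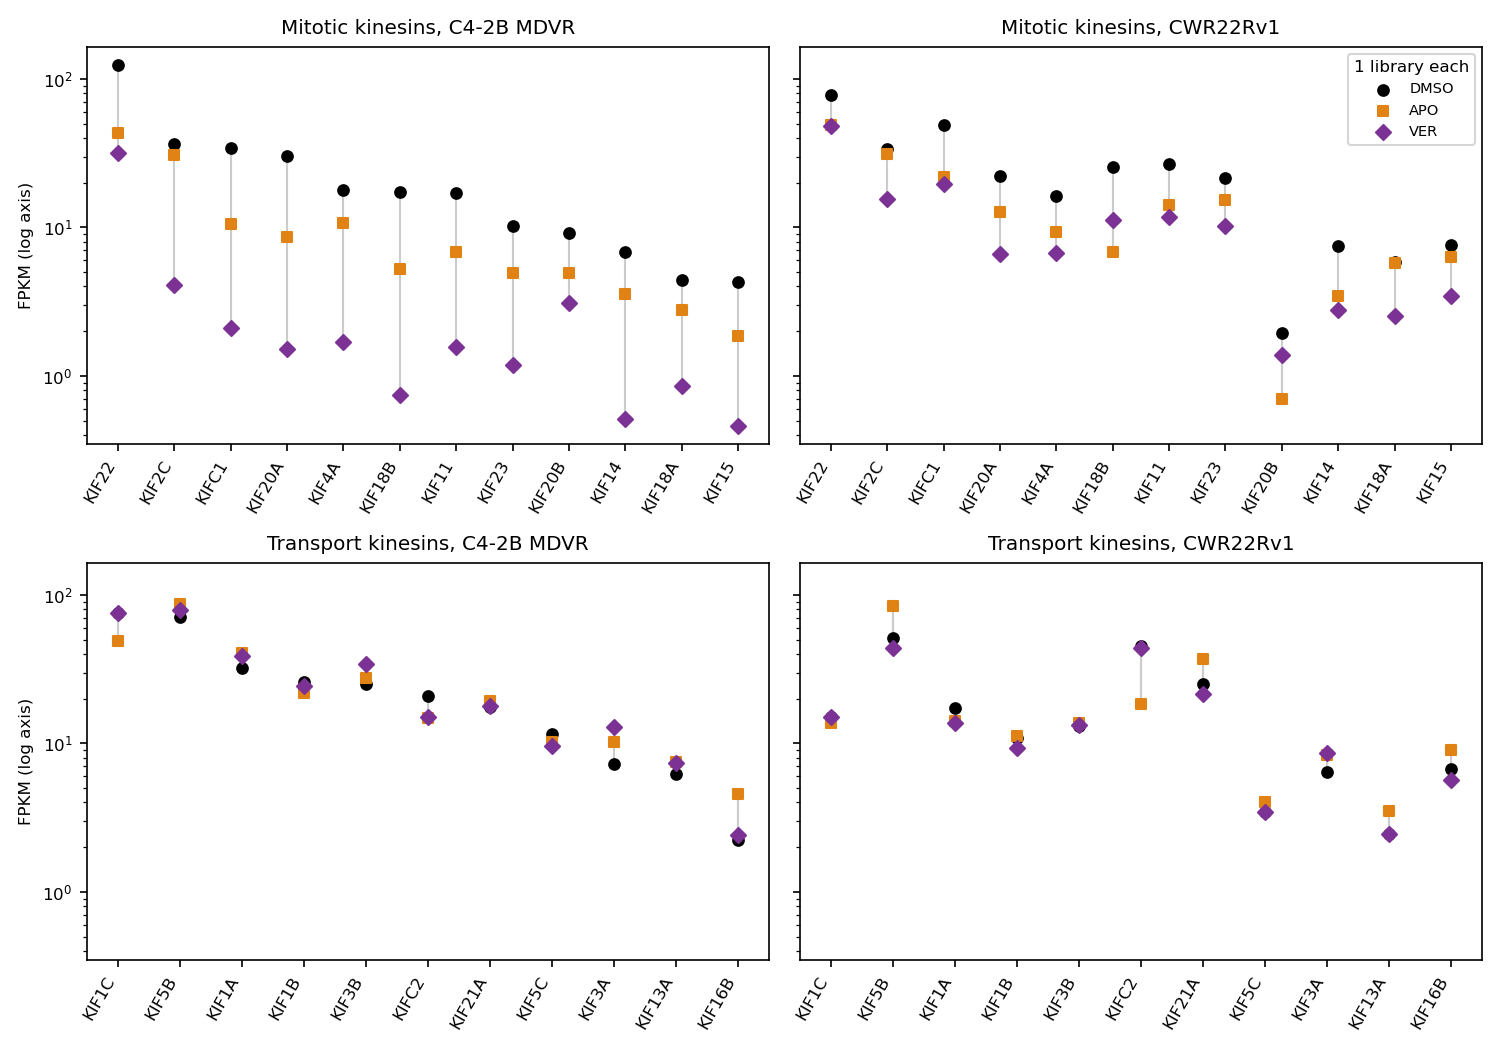
FPKM (log axis) of the 12 mitotic kinesins with signal (top) and the 11 transport kinesins at 5 FPKM or more in at least 1 library (bottom) in C4-2B MDVR (left) and CWR22Rv1 (right), with 1 library per symbol and no error. VER values of mitotic kinesins in C4-2B MDVR reach down to 0.463 FPKM (KIF15), while the 11 transport kinesins lie between 40.4% (KIFC2 with APO in CWR22Rv1) and 206% (KIF16B with APO in C4-2B MDVR) of DMSO.

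The difference between VER and DMSO was larger in C4-2B MDVR for each of the 12 mitotic kinesins. The log2 fold change in C4-2B MDVR minus that in CWR22Rv1 ranged from -3.19 (KIF18B) to -1.06 (KIF18A), with a median of -2.04, and the median over all 18059 genes compared in both lines was 0.0. With APO this value ran from -0.99 (KIF20A) to 0.47 (KIF20B), with a median of -0.46, against 0.0005 over all genes. Of the 12, 8 were below 0, the side of the larger difference in C4-2B MDVR. Of all 18059 genes, 8987 were below 0 with APO and 9010 with VER. Each line has 1 library per condition, so this difference between lines was not tested.

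VER and APO were given at the same concentration and for the same time, so their libraries were also set against each other. In C4-2B MDVR all 12 mitotic kinesins were more than 1.2-fold lower with VER than with APO, against 32.5% of all genes, with a median of -2.16. The smallest value was that of KIF22, -0.46, and the largest that of KIF2C, -2.88. In CWR22Rv1 7 of 12 were lower, against 34.5% of all genes, and 2 were higher (KIF18B by 0.71 and KIF20B by 0.90), against 37.3%. The median there was -0.38. Transport kinesins had medians of 0.01 and -0.23 in this comparison.

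To set the lines together, each inhibitor was compared with DMSO over all 6 libraries with limma on log2(FPKM + 0.1), with cell line as a term and 2 residual degrees of freedom before moderation. The lines then stand in for replicates, which they are not, and the differences between the lines described here enter as error. At an adjusted p of 0.05 (Benjamini-Hochberg over 23671 genes) 0 of 38 kinesins were called with APO, against 2.37% of all genes, and 0 of 38 with VER, against 0.0634%. At an unadjusted p under 0.05 there were 7 of 38 kinesins with APO, where 19.8% of all genes passed, and 13 of 38 with VER, where 13.7% passed. Of these, 5 of 12 mitotic kinesins were lower with APO (9.75% of all genes were) and 11 of 12 with VER (6.89%). In limma, KIF20A had the lowest adjusted p with VER, 0.118, at a log2 difference of -2.98 ± 0.53 (SE), lower in 2 of 2 lines. KIF22 had the lowest with APO, 0.105, at -1.10 ± 0.30 (SE), also lower in both lines. With every library rescaled to the same sum, 5 mitotic kinesins were called lower with VER, against 0.439% of all genes. This rescaling raised the calls over all genes with VER from 15 to 186.

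Spindle proteins that work with these motors, taken as a list of 20 (chromosomal passenger, centralspindlin, kinetochore and pole proteins), had medians below 0. The list also holds CENPE, a kinesin without a KIF symbol. In C4-2B MDVR the medians of the list were -0.91 with APO and -3.14 with VER, and -0.45 and -1.12 in CWR22Rv1. Of the 20, more than 2-fold lower were 6 and 18 in C4-2B MDVR (13.3% of all genes with either inhibitor) and 3 and 14 in CWR22Rv1 (16.8% and 8.92%), so with APO in CWR22Rv1 the count was near that of all genes. Of the 20, 0 were more than 1.2-fold higher in any of the 4 comparisons, where 32.1% to 37.7% of all genes were. BIRC5 (survivin) of the passenger complex was at 100, 50.7 and 9.27 FPKM in C4-2B MDVR and at 71.3, 42.5 and 31.0 in CWR22Rv1. MKI67, a marker of dividing cells, was at 23.4, 6.86 and 1.5 FPKM in C4-2B MDVR and at 27.4, 8.64 and 10.1 in CWR22Rv1. NUMA1, which tethers microtubules at the poles and is a nuclear protein between divisions, was at 57.9, 43.9 and 59.8 FPKM in C4-2B MDVR and at 76.0, 62.9 and 85.5 in CWR22Rv1, within 1.2-fold of DMSO with VER in both lines.

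Among the 12 regulators that act through E2F, CHR and related elements, FOXM1 and MYBL2 had values ordered like most mitotic kinesins. FOXM1 was at 71.4, 31.1 and 12.9 FPKM in C4-2B MDVR and at 69.3, 29.8 and 26.4 in CWR22Rv1. MYBL2 was at 98.0, 42.5 and 11.6 FPKM and at 34.7, 15.6 and 14.1. Both were more than 2-fold lower in all 4 inhibitor libraries, in each of which 8.92% to 16.8% of all genes were. E2F1 was at 40.6, 15.8 and 15.0 FPKM in C4-2B MDVR and at 46.0, 13.3 and 29.8 in CWR22Rv1, where, like KIF18B, it was lower with APO than with VER. Of the MuvB subunits, LIN37, LIN52 and LIN54 had log2 differences between -0.39 and 1.01, and LIN9 had -0.66 (APO) and -1.26 (VER) in C4-2B MDVR and 0.04 and -0.34 in CWR22Rv1. RBL1 (p107) had -1.29 and -2.001 in C4-2B MDVR and -0.89 and -0.18 in CWR22Rv1. RBL2 (p130), the pocket protein of the DREAM repressor in resting cells, was at 15.4, 19.6 and 31.2 FPKM in C4-2B MDVR and at 32.1, 36.2 and 52.4 in CWR22Rv1. As a list the regulators had medians of -0.43 (APO) and -0.93 (VER) in C4-2B MDVR and of -0.32 and -0.28 in CWR22Rv1. The part of these regulators in the kinesin values was not tested.

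Kinesins with a CCAAT and a CHR match in one window, 11 of them measurable, had medians of -0.95 (APO) and -2.99 (VER) in C4-2B MDVR and of -0.92 and -1.17 in CWR22Rv1. The other measurable kinesins with a window had medians of -0.02, 0.11, -0.08 and -0.02. The 2 sets nearly coincide with the mitotic class and the rest, so the values add nothing to the class comparison. The members that cross the classes are KIF5B, KIF24, KIF2C, KIF15 and KIF20A. KIF5B, a transport motor with both matches, had no value more than 1.2-fold lower in any of the 4 comparisons. KIF2C, KIF15 and KIF20A, mitotic motors without both, were at 5.01% to 46.1% of DMSO with VER. With APO, KIF2C was at 85.2% and 92.7% in the 2 lines, KIF15 at 42.7% and 83.6% and KIF20A at 28.5% and 56.8%.

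KIF24, which works at centrioles where it holds back cilium formation, was set in the other class and is described in full after its values were seen. It was at 3.37, 1.70 and 0.675 FPKM in C4-2B MDVR and at 3.41, 1.65 and 2.01 in CWR22Rv1. All 4 inhibitor values lay below the DMSO value of the line, at 50.5%, 20.0%, 48.3% and 58.9% of it. As in KIF18B, the lowest value in CWR22Rv1 was that with APO. KIF2A, a depolymerase related to KIF2C that also works outside mitosis, lay between 14.0 and 17.7 FPKM in all 6 libraries, and its inhibitor values were 82.7% to 91.3% of DMSO. KIF2A shares 428 of its 4774 exonic bases with IPO11 on the same strand.

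KIF5B and KIF1C led the transport kinesins in C4-2B MDVR with DMSO, and KIF5B and KIFC2 in CWR22Rv1. KIF5B, the kinesin-1 heavy chain found in most cells, which moves mitochondria and many vesicles, was at 70.5, 87.2 and 79.2 FPKM in C4-2B MDVR and at 51.5, 83.6 and 43.6 in CWR22Rv1. It was highest with APO in both lines, at 124% and 162% of DMSO. Its relatives of the same family, better known from neurons, were lower. KIF5C was at 11.6, 10.2 and 9.62 FPKM in C4-2B MDVR and at 3.48, 4.04 and 3.43 in CWR22Rv1, and KIF5A was between 0.932 and 1.35 FPKM in C4-2B MDVR and between 1.83 and 4.67 in CWR22Rv1.

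Of the kinesin-2 motors, which run in cilia and carry late endosomes, KIF3A was higher with both inhibitors in both lines, at 7.30, 10.2 and 12.9 FPKM in C4-2B MDVR and at 6.41, 8.38 and 8.65 in CWR22Rv1. These are 140%, 177%, 131% and 135% of DMSO. On the deposited scale it was the only transport kinesin of the 11 at 5 FPKM or more with all 4 values more than 1.2-fold higher. Its partner KIF3B was at 24.99, 27.7 and 34.4 FPKM in C4-2B MDVR, and between 13.1 and 13.7 FPKM in all 3 CWR22Rv1 libraries. In limma over both lines KIF3A had an adjusted p of 0.326 with VER and 0.382 with APO.

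The kinesin-3 motors carry vesicles and endosomes. KIF1C was at 75.2, 48.6 and 75.7 FPKM in C4-2B MDVR and at 15.0, 13.8 and 15.1 in CWR22Rv1, with the VER value at 101% of DMSO in both lines. KIF1A, a carrier of synaptic vesicle precursors in neurons, was at 32.0, 40.6 and 38.8 FPKM in C4-2B MDVR and at 17.4, 14.3 and 13.6 in CWR22Rv1. The inhibitor values were thus above DMSO in one line and below it in the other. KIF1B was at 25.8, 21.9 and 24.4 FPKM and at 10.8, 11.1 and 9.35. KIF13A was at 6.23, 7.46 and 7.40 FPKM in C4-2B MDVR and at 2.46, 3.50 and 2.44 in CWR22Rv1. KIF16B, an early endosome motor, was at 2.22, 4.58 and 2.40 FPKM in C4-2B MDVR and at 6.74, 9.07 and 5.65 in CWR22Rv1, highest with APO in both.

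KIF21A, a kinesin-4 that restrains microtubule growth, was at 17.6, 19.3 and 17.7 FPKM in C4-2B MDVR and at 25.2, 37.0 and 21.4 in CWR22Rv1. KIFC2, a C-terminal motor, was at 20.8, 14.9 and 15.2 FPKM in C4-2B MDVR and at 45.4, 18.3 and 44.2 in CWR22Rv1. On the scale of log2(FPKM + 0.1) it was the only transport kinesin more than 2-fold below DMSO in any of the 4 inhibitor libraries. In plain FPKM, KIF21B with APO in C4-2B MDVR was at 37.7% of DMSO, at 0.0634 against 0.168 FPKM, values near the filter. KIFC2 shares 791 exonic bases with FOXH1 on the opposite strand, and whether strand was used in counting is not given in the sources used here. Of the transport kinesins under 5 FPKM, KIF13B and KIF3C lay between 1.24 and 4.90 FPKM in all libraries, and KIF17, KIF21B and KIFC3 reached at most 0.187, 2.12 and 1.003 FPKM. No kinesin under 5 FPKM in all libraries was more than 2-fold higher or lower with the same inhibitor in both lines.

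In C4-2B MDVR the transport kinesins as a class had medians of 0.20 with APO and 0.22 with VER over 16 measurable genes. In CWR22Rv1 the medians over 17 genes were 0.38 and -0.02. In C4-2B MDVR more than 1.2-fold higher were 7 of 16 with APO and 7 of 16 with VER (37.7% and 35.6% of all genes), and 9 of 17 and 5 of 17 in CWR22Rv1 (35.6% and 32.1%). More than 1.2-fold lower were 3 and 2 (35.4% and 34.9% of all genes), and 2 and 1 (39.2% and 32.3%). More than 2-fold higher were in C4-2B MDVR KIF16B with APO and KIFC3 with VER (15.4% and 14.4% of all genes were), KIF5A, KIF17 and KIF21B with APO in CWR22Rv1 (13.8%) and KIF21B with VER there (10.8%). In the line where it was called, each of these was under 5 FPKM in all libraries. KIF17 with DMSO in CWR22Rv1 (0.0343 FPKM) and KIFC3 with DMSO in C4-2B MDVR (0.0499 FPKM) lay under the filter of 0.1 FPKM. Both passed it only through inhibitor libraries, so these calls are not read as increases. Both are also in the 1.2-fold counts of those lines. The split of higher and lower calls depended on the scaling. With every library rescaled to the same sum, 4 transport kinesins were higher and 5 lower with APO in C4-2B MDVR and with VER in CWR22Rv1. Of all genes past 1.2-fold on that scale, 43.1% and 44.9% were higher in these 2 comparisons, near the 44.4% of transport kinesins. With APO in CWR22Rv1, where the mitochondrial share was 10.4% against 25.7% with DMSO, 8 were higher and 4 lower once scaled to the sum without mitochondrial genes. Of all genes past 1.2-fold on that scale, 40.1% were higher.

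**Figure D4:**
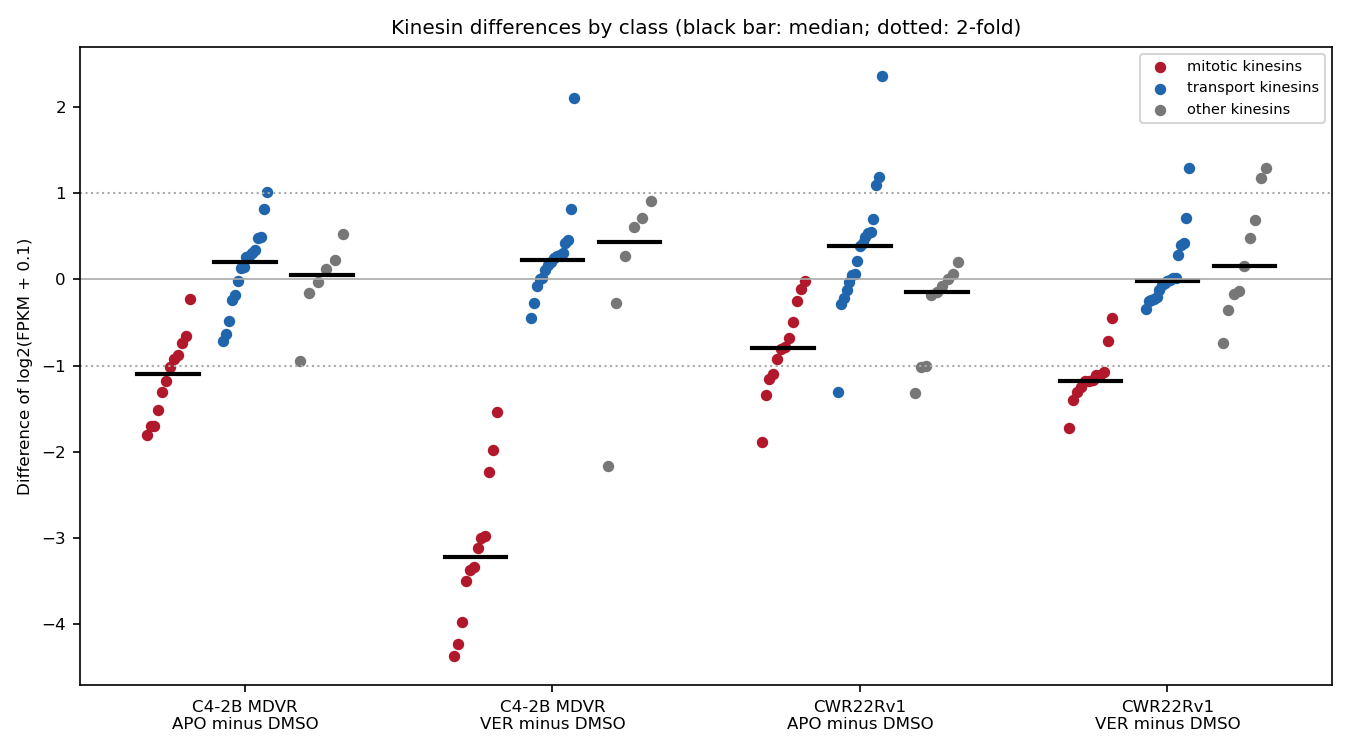
Differences of log2(FPKM + 0.1), inhibitor minus DMSO, for the measurable kinesins in the 4 comparisons (1 point per gene, black bars for class medians, dotted lines at 2-fold, 1 library per condition). Mitotic kinesins lie below 0 in all 4, with medians from -0.80 to -3.22, while transport kinesins spread around 0.

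Proteins that link transport kinesins to cargo (18 light chains, adaptors and mitochondrial receptors) had medians of 0.42 and 0.25 in C4-2B MDVR and of 0.35 and -0.04 in CWR22Rv1. KLC1, a kinesin-1 light chain, was at 40.2, 60.4 and 59.0 FPKM in C4-2B MDVR and at 46.9, 55.7 and 35.0 in CWR22Rv1. RHOT2 (Miro2), which anchors motors to mitochondria, was at 79.7, 47.2 and 41.2 FPKM and at 121, 54.4 and 82.2, lower than DMSO with each inhibitor in both lines. FEZ1, a kinesin-1 adaptor, was at 0.977, 2.70 and 2.48 FPKM and at 1.88, 6.25 and 3.45, the largest mean increase of the list. The motor that walks the other way, dynein with dynactin (21 genes), had medians of 0.15, 0.03, 0.43 and 0.09 in the same order of comparisons. Its light chain DYNLL1 was between 260 and 365 FPKM in all 6 libraries. Other members differed more. DYNLRB2, with the largest mean increase of the list, was at 0.399, 1.19 and 2.47 FPKM in C4-2B MDVR and at 0.490, 0.433 and 2.28 in CWR22Rv1. BICD2, with the largest mean decrease, was at 9.73, 4.37 and 5.88 FPKM and at 7.96, 5.95 and 7.18.

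Tubulins, which form the track of the motors (12 genes), had medians of -0.49 and -1.04 in C4-2B MDVR and of -1.14 and -0.91 in CWR22Rv1. TUBA1B, the most abundant alpha-tubulin gene here, was at 1377, 779 and 328 FPKM in C4-2B MDVR and at 1375, 444 and 466 in CWR22Rv1. TUBB was at 886, 517 and 244 FPKM and at 467, 190 and 158. Relative to DMSO, these 2 tubulins were lower with APO in CWR22Rv1 (-1.63 and -1.29) than with APO in C4-2B MDVR (-0.82 and -0.78). Tubulin genes have near-identical copies, so values of single genes are uncertain.

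The 2 lines also differed in their kinesins with DMSO. KIF12 showed the widest gap, at 0.154 FPKM in C4-2B MDVR and 27.9 in CWR22Rv1, and with the inhibitors it was at most 0.375 and at least 13.7 FPKM. KIF1C was 5.02-fold higher in C4-2B MDVR, KIF20B 4.73-fold and KIF5C 3.34-fold. KIF13B was 3.95-fold, KIF16B 3.03-fold and KIFC2 2.19-fold higher in CWR22Rv1. The order of the mitotic kinesins was similar, with KIF22, KIF2C and KIFC1 the first 3 in both. Among the motors best known from neurons, KIF1A and KIF5C were higher in C4-2B MDVR and KIF5A in CWR22Rv1, while the neuroendocrine markers summed to 22.2 FPKM in C4-2B MDVR and 140 in CWR22Rv1. The part of these markers in the kinesin levels was not tested.

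**Figure D5:**
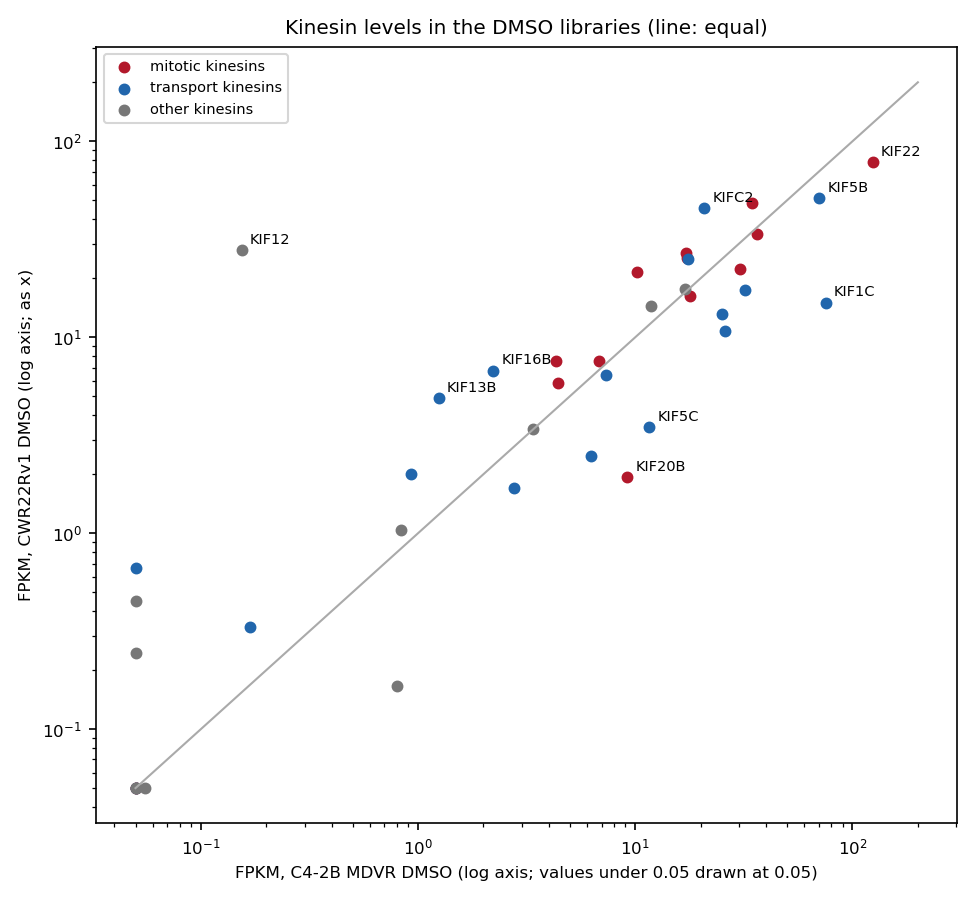
FPKM of the 42 kinesins in the DMSO library of C4-2B MDVR (x) and CWR22Rv1 (y), both on log axes, 1 point per gene coloured by class, values under 0.05 drawn at 0.05. KIF12 (0.154 and 27.9 FPKM) and KIF1C (75.2 and 15.0) lie far from the line of equal values.

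The remaining other kinesins were KIF9, at 11.8, 16.9 and 19.3 FPKM in C4-2B MDVR and at 14.4, 12.9 and 16.1 in CWR22Rv1, and 7 genes of low or no signal. KIF9 shares 1048 exonic bases with KIF9-AS1 and KLHL18 on the other strand. KIF27 lay between 0.834 and 1.72 FPKM, and KIF6 between 0.165 and 1.27 FPKM with its highest value with VER in both lines. KIF7 reached 0.670, KIF26A 0.244 and KIF25 0.125 FPKM, and KIF26B stayed under 0.1 FPKM. KIF19 was listed at 0 in all 6 libraries.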

How the data were processed

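RNA-seq of 6 conditions (2 lines with DMSO, APO or VER, 1 library each) was analysed. Samples were grouped by their titles. Per the labels, the authors prepared poly(A) libraries with a KAPA stranded kit (the paper names a TruSeq kit), aligned the reads with HISAT to GRCh38 and ran Cufflinks and Cuffnorm. The deposited FPKM values are normalized between libraries by the authors. Tool versions and the annotation release are not given in the sources used here. Of 60658 identifiers 57047 matched GENCODE 29, from which symbols and coordinates were taken. FPKM are not counts and whole reads were not recovered, so the depth and any counting error are unknown. Relative depth was read from ratios of low values between libraries.

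Fold changes were differences of log2(FPKM + 0.1), a scale that understates the change of low genes, for genes above 0.1 FPKM in at least 1 library of the line. The thresholds were 1.2-fold, as in the study, and 2-fold. Over both lines limma with a mean-variance trend was used on log2(FPKM + 0.1), with line as a term. Genes were named with values in all libraries where a kinesin reached 5 FPKM in at least 1 library, and KIF24 was added after its values were seen. Of each partner list the 2 genes highest in mean FPKM and those with the largest mean increase and decrease could be named, and any of the regulators. The kinesins, lists and tests were chosen with earlier results of these data known. The alternatives were pseudocounts of 0.01 and 1, no filter, 2 stricter filters, 3 rescalings and 2 other class definitions. Scripts were tested on simulated data. Python 3.11.15, pandas 2.3.3, numpy 2.4.6, matplotlib 3.10.9, R 4.3.3 and limma 3.58.1 were used. Promoter windows were from RefSeq (GRCh38.p14).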

Additional observations from a re-analysis of the deposited data

Results flagged for a closer look

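In 3 cases an inhibitor value lay more than 1.2-fold above DMSO in one line and more than 1.2-fold below it in the other. KIF1A differed from DMSO by 0.34 (log2) with APO in C4-2B MDVR and by -0.28 in CWR22Rv1. With VER, KIF1A differed by 0.28 and by -0.35. The kinesin-1 light chain KLC1 differed by 0.55 with VER in C4-2B MDVR and by -0.42 in CWR22Rv1. Each line has 1 library per condition, so none of these differences between the lines was tested, and the 2 values of KIF1A in a line share its DMSO library.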

How the results depend on the processing

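Over 9 alternatives in each line and with each inhibitor, every mitotic median stayed below 0. A reversal was scored only for medians past 1.2-fold, which among transport medians was only that with APO in CWR22Rv1. Its direction also held. Counts were compared by size and have no direction. The mitotic median stayed in C4-2B MDVR within -1.27 to -0.90 (APO) and -3.30 to -2.59 (VER), and in CWR22Rv1 within -0.95 to -0.69 and -1.24 to -1.09. The transport median with VER in CWR22Rv1 ranged from -0.08 to 0.03 and so has no direction. With APO in C4-2B MDVR the transport median ranged from 0.04 to 0.28. After rescaling to the same sum, 8 transport kinesins lay above 0 and 8 below in that comparison, so its direction depends on the scaling. A pseudocount of 1 gave the mitotic median of -2.59, 2 mitotic kinesins more than 2-fold lower with APO in CWR22Rv1 (4 with 0.1), and 5 and 3 transport kinesins more than 1.2-fold higher or lower with VER in C4-2B MDVR and CWR22Rv1 (9 and 6). Without KIF21A, KIF21B, KIFC2 and KIFC3 that count was 7 with APO in CWR22Rv1 (11). Rescaling to the same sum (TPM) gave 5 kinesins called by limma with VER, while 0 were called under the other 7 alternatives and under all 8 with APO. Rescaling without mitochondrial genes moved the median of all genes by APO to -0.10 in C4-2B MDVR and -0.16 in CWR22Rv1. Of 1628 alternative values for single genes, 22 moved by more than 1.2-fold, 21 of them with the pseudocount of 1. None reversed, but a reversal was scored only where the reported value was past 1.2-fold. Smaller values could change sign without being scored. After rescaling to the same sum, 2 of 12 mitotic kinesins lay above 0 with APO in CWR22Rv1, and 0 were more than 1.2-fold higher. No paired analysis was possible because each condition has 1 library and the same number in every group is only a name. With 1 library per condition no library could be left out. Values under about 1 FPKM are limited by depth, least precise in the C4-2B MDVR DMSO library.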
